A study of Mus musculus with 14 samples.

Results

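Genes for the uptake of dying cells and modified lipoproteins were followed in macrophages of the injured mouse brain and in blood monocytes. The set holds 9 genes of the 17178 with a named probe on the array. They were taken by symbol, as the non-control probes whose accession maps to Mertk, Axl, Gas6, Cd36, Msr1, Stab1, Marco, Dab2 or Lrp1, and they have 13 probes of 41174. The symbols were not chosen by a threshold on measured values. The study hybridised RNA from sorted cells to 14 Agilent 1-colour arrays in 4 groups. All cells came from male YARG mice, a reporter strain in which a fluorescent protein marks Arginase-1 (Arg1) expression, aged 12 to 16 weeks. Arg1+ brain macrophages (4 arrays) and Arg1- brain macrophages (4 arrays) were both collected 1 day after traumatic brain injury (TBI, by controlled cortical impact). Blood monocytes were collected 1 day after TBI (3 arrays) or from normal mice (3 arrays), and no sham-operated samples were analysed here. A reporter-positive cell is defined by the reporter and not by Arg1 protein. The sort used antibodies against CD45, CD11b and Ly6G among others, and whether its gates parted microglia from infiltrating macrophages is not stated here. The labels do not say whether replicates are separate animals, so p-values measure the spread between arrays, which may be technical.

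Macrophages remove dying cells by recognising phosphatidylserine on the cell surface, either directly or through bridging proteins. Mertk and Axl are receptor tyrosine kinases of the TAM family, and Gas6 is a bridging ligand that binds phosphatidylserine and activates them. Cd36, Msr1, Marco and Stab1 are scavenger receptors that take up oxidised lipoproteins, lipids, microbes or dead-cell debris. Lrp1 is a large endocytic receptor of the LDL receptor family, and Dab2 is a clathrin adaptor that links receptors of that family to endocytosis. In the brain, microglia are known for Mertk, and macrophages along the meninges and vessels are known for Stab1 and Msr1.

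The promoter windows of 4 members are shown because these genes gave the 2 contrasting patterns described here: Cd36 and Axl differed in opposite directions between the brain groups, whereas Mertk and Stab1 were high in both brain groups and low in blood. Each window runs from 250 bases before to 50 after the annotated start (RefSeq, GRCm38.p6) and is written 5′ to 3′ on the gene's strand. The windows are Cd36 at chr5:17835847-17836146 (minus strand), Axl at chr7:25788684-25788983 (minus strand), Mertk at chr2:128698665-128698964 (plus strand) and Stab1 at chr14:31168592-31168891 (minus strand). Capitals mark a match to a searched motif on either strand.
Cd36: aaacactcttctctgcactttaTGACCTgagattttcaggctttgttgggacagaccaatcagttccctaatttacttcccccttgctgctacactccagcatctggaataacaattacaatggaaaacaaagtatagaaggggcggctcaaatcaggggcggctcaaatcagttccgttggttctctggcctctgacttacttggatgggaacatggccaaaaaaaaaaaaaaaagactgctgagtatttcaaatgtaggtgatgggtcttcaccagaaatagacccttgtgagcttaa
Axl: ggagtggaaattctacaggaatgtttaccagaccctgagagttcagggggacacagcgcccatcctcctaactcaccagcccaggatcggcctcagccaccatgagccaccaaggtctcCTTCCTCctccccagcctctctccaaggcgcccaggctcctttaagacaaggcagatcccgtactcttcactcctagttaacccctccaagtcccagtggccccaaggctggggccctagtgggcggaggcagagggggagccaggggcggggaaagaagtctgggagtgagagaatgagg
Mertk: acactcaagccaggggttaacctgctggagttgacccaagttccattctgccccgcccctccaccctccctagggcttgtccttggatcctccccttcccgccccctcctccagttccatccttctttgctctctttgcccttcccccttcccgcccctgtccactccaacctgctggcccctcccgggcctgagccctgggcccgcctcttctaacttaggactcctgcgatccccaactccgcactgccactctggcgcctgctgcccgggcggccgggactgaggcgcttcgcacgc
Stab1: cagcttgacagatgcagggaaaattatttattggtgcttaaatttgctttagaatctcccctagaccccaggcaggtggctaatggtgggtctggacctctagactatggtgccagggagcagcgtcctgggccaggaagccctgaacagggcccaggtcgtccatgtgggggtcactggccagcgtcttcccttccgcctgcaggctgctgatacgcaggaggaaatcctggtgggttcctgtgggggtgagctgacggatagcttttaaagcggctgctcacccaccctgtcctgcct
Of the 9 members, 8 had a window (9 windows in all), and Msr1 was named only. The letters AGGTCA, a nuclear receptor half-site, were found in 1 of 9 member windows, that of Cd36, where the match reads TGACCT on the printed strand and begins at base -228 from the start. The same letters occur in 16.3% of all 32851 windows. The letters GAGGAAG, the core bound by PU.1, occur in 13.6% of all windows and were found in 2 of 9 member windows, Axl at -131 (CTTCCTC as printed) and Marco at -146. The letters TGCTGAC, a Maf half-site, occur in 4.67% of all windows and in 0 of 9 member windows. None of these motifs overlaps another in the printed windows, and a match describes letters only.

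Array quality bears on the members in one respect. The 75th percentile of the processed signal ran from 119.4 to 418.5 between arrays, 50.4% to 68.69% of spots were well above background, and 0 spots were saturated. The scanner software called 200 to 728 spots per array outliers, and these were left out. Such flags fell on 5.99% to 27% of the brightest 5% of spots but on 0.131% to 0.369% of the others, so bright members lost values. Levels are given as log2 of the signal divided by the array's 75th percentile, with a floor at -4.32. A level therefore compares 1 probe between arrays and not 1 gene with another. Of the 9 members, 8 passed the filter on usable and bright spots. All 6 markers of myeloid identity were above background on every brain and post-TBI blood array, and 5 of them on every normal blood array. The remaining marker, Csf1r, was above background on both normal blood arrays where its spot was usable (mean level 6.76). Mertk passed through the brain arrays alone, being above background on 1 of 6 blood arrays. Lrp1 could not be tested, because 9 of its 14 spots were called outliers. Arg1 itself, the sorting gene, was higher in Arg1+ than in Arg1- macrophages by 3.25 ± 0.43 (log2 ± SE, adjusted p = 0.000526, limma with Benjamini-Hochberg adjustment, 3 of 4 Arg1+ spots usable). Arg1- macrophages did not lack Arg1 RNA. Their mean level was 3.16, above background on all 4 arrays, against -3.48 in post-TBI blood (difference 6.65 ± 0.43, adjusted p = 5.86e-08, limma).

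**Figure D1:**
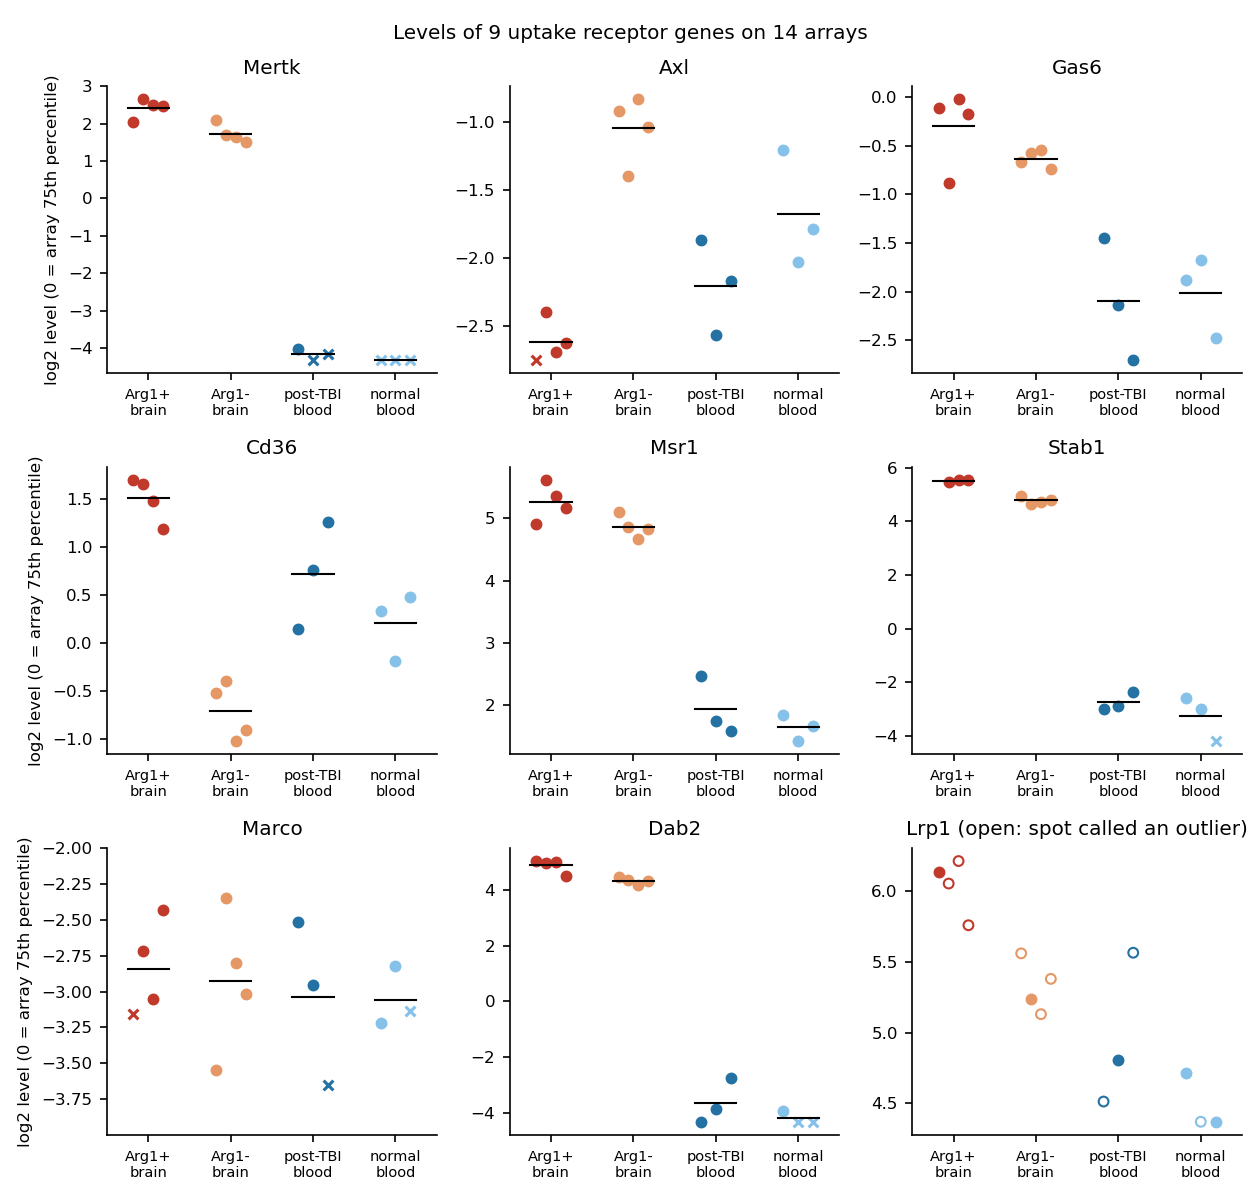
Level of each of the 9 genes on every array, as log2 of the processed signal over the array's 75th percentile, by group. Each point is 1 array, the bar is the group mean, crosses are spots not well above background, and open circles for Lrp1 are spots the scanner software called outliers. Cd36 and Axl part the 2 brain groups in opposite directions, and Mertk, Stab1, Dab2 and Msr1 part brain from blood.

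The first comparison asked how Arg1+ and Arg1- macrophages of the injured brain differ. Cd36 was 4.64-fold higher in Arg1+ than in Arg1- macrophages, and Axl was 2.96-fold higher in Arg1- macrophages. Mertk was 1.60-fold higher in Arg1+ macrophages, close to the threshold of the test. Thus 2 of the 8 tested members were called higher, where 2.14% of all 21969 features were, and 1 was called lower, where 2.9% were. In either direction 5.04% of features were called. The arrays of the groups did not overlap for 4 members (Cd36, Axl, Stab1 and Dab2), against 14.9% of all features. The median difference of the 8 members was 0.47 on the log2 scale, and that of all features was 0. In bulk RNA, fewer cells of a type and less RNA per cell cannot be told apart.

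Cd36 had levels of 1.69, 1.65, 1.48 and 1.18 on the Arg1+ arrays and -0.52, -0.40, -1.02 and -0.91 on the Arg1- arrays. The 3 post-TBI blood arrays read 0.14, 0.76 and 1.25, and the 3 normal blood arrays 0.33, -0.19 and 0.48. Arg1+ macrophages thus stood highest and Arg1- macrophages lowest, with both blood groups between them. The difference between the brain groups was 2.21 ± 0.24 (log2 ± SE, adjusted p = 8.28e-05, limma, n = 4 and 4). It ran from 1.58 to 2.68 within the 4 slides, each of which held both brain groups, and was higher in Arg1+ cells on 4 of 4. With the slide as a block the adjusted p was 0.000106. Platelets are known to carry Cd36, and the summed scaled signal of 6 tested platelet markers was 8.09 to 13.5 on Arg1+ arrays, 1.98 to 5.26 on Arg1- arrays, 10.2 to 21.2 in post-TBI blood and 4.90 to 7.93 in normal blood. The lowest sums were on Arg1- arrays, with a range that overlapped that of normal blood. The sums were highest in post-TBI blood, with a range that overlapped that of the Arg1+ arrays. Of the 6 markers 1 was called between the brain groups (Ppbp, a platelet chemokine, 2.72 higher), and their median difference was 0.07. Itga2b (-0.29) and Gp9 (-0.35) were not called, and Gp9 and Gp5, parts of a platelet receptor, were above background on no Arg1+ array. The part of platelet RNA in the Cd36 difference was not tested.

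Axl levels were -2.75, -2.40, -2.69 and -2.62 on the Arg1+ arrays and -0.92, -1.40, -0.83 and -1.04 on the Arg1- arrays. In blood they were -1.87, -2.57 and -2.17 after TBI and -1.21, -2.03 and -1.79 in normal mice. Arg1- macrophages were thus the highest group, with normal blood, post-TBI blood and Arg1+ macrophages below them in that order of means. Axl was lower in Arg1+ macrophages by a log2 difference of -1.57 ± 0.23 (adjusted p = 0.00106, limma), and by -1.77 to -1.22 within the 4 slides. The gene was dim, with 1 of 4 Arg1+ spots not well above background. With normexp background correction the difference shrank to -0.75 (adjusted p = 0.0164) and in the authors' deposited log2 values to -1.04 (adjusted p = 0.00246). Markers of other cell types were also higher in Arg1- macrophages. Of 5 tested dendritic cell markers 4 were called lower in Arg1+ cells, with a summed signal of 0.322 to 0.448 on Arg1+ arrays against 3.71 to 5.38 on Arg1- arrays, and Kmo was above background on no Arg1+ array. Of 9 neutrophil markers 7 were called lower in Arg1+ cells, with sums of 7.05 to 16.2 against 32.1 to 140.5, in cells sorted with an antibody against Ly6G, a neutrophil antigen. A spot left out as an outlier adds nothing to a sum, and the neutrophil marker S100a8 was usable on 3 of the 4 Arg1- arrays. Of 6 markers of Ly6C-low monocytes 4 were called lower and 1 higher in Arg1+ cells (median difference -1.40), and of 5 markers of Ly6C-high monocytes 3 were called lower and 0 higher (median -1.01). The part of these cells in the Axl difference was not tested.

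Mertk read 2.03, 2.66, 2.50 and 2.46 on the Arg1+ arrays and 2.10, 1.69, 1.64 and 1.50 on the Arg1- arrays, so that 1 Arg1- array lay above the lowest Arg1+ array. The difference of 0.68 ± 0.18 gave an adjusted p of 0.0466 with limma, and it was positive on 4 of 4 slides (0.40 to 1.02). Msr1 and Dab2, not called in the main fit, were also higher in Arg1+ cells on 4 of 4 slides. With the slide as a block the adjusted p of Mertk was 0.0278. The call was lost on leaving out any of 10 of the 14 arrays, that is all but replicate 1 of either brain group and post-TBI replicates 1 and 4, and with normexp background correction (adjusted p = 0.166), quantile normalization (0.116) or a lower floor (0.376). Microglia are known for Mertk, and their markers gave sums of 52.8 to 82.9 on Arg1+ arrays and 42.1 to 59.3 on Arg1- arrays. A spot left out as an outlier adds nothing to a sum, and Cx3cr1 was usable on 3 of the 4 Arg1- arrays. By limma 0 of the 10 microglia markers were called between the brain groups, but 6 had an unadjusted p under 0.05, where 3854 of all 21969 features did. The median difference of the 10 markers was 0.55. Their part in the Mertk difference was not tested.

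**Figure D2:**
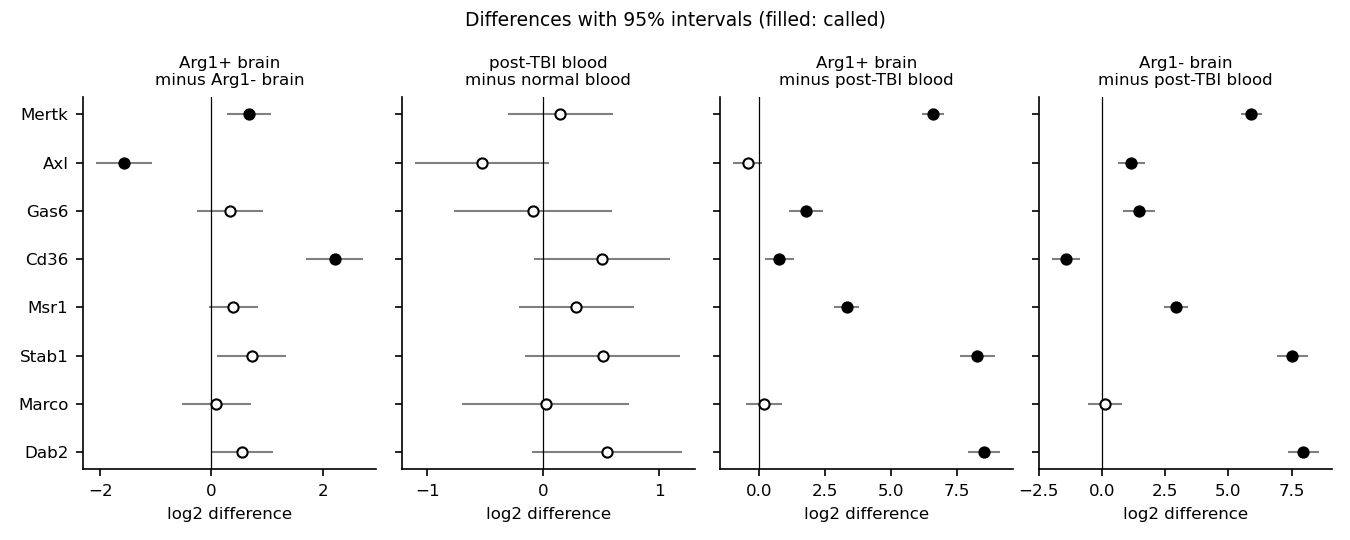
Log2 difference with its 95% interval for each of the 8 tested members in the 4 comparisons, filled where the adjusted p was under 0.05. The brain groups differ in Cd36, Axl and Mertk, no member is called between the blood groups, and the brain groups stand above post-TBI blood for Mertk, Gas6, Msr1, Stab1 and Dab2.

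The remaining members did not pass the test between the brain groups in the main fit. Stab1 gave 5.47, 5.54 and 5.53 on the 3 usable Arg1+ arrays and 4.97, 4.65, 4.73 and 4.81 on the Arg1- arrays, without overlap. Its difference of 0.72 ± 0.29 had an adjusted p of 0.201. A fit on the 2 brain groups alone gave the same difference with an adjusted p of 0.015, and the same probe in the authors' deposited log2 values gave 0.66 (adjusted p = 0.0302, limma on every probe). Dab2 read 5.04, 4.96, 5.01 and 4.51 against 4.45, 4.37, 4.17 and 4.33, again without overlap, and differed by 0.55 ± 0.26 (adjusted p = 0.298). Without post-TBI blood replicate 4, which enters through the shared spread, its adjusted p was 0.0486. Gas6 differed by 0.33 ± 0.28 (adjusted p = 0.63), with a 95% interval from -0.26 to 0.93. Marco differed by 0.09 ± 0.29 (adjusted p = 0.95), with an interval from -0.54 to 0.72. Differences of the size seen for Mertk lie inside both intervals.

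Probes of 1 gene did not always give the same call. Msr1 has 3 probes, and the brightest, used in the main fit, read 4.91, 5.61, 5.36 and 5.17 on Arg1+ arrays and 5.10, 4.86, 4.68 and 4.83 on Arg1- arrays. Its groups overlapped, and the difference of 0.40 ± 0.20 was not called (adjusted p = 0.343). Another probe (A_52_P607128) read 3.15, 3.19, 3.44 and 3.29 against 2.01, 2.88, 2.02 and 2.61. It had no overlap and was called, at 0.89 ± 0.20 (adjusted p = 0.0182, limma on every probe). The remaining probe (A_52_P127130) was at 0.62 ± 0.18 (adjusted p = 0.0591). With the mean of the probes per gene, Msr1 was called higher in Arg1+ macrophages at 0.62 (adjusted p = 0.0241). Across arrays the 3 probes had a Pearson r of 0.956 to 0.981, which describes mainly the gap between brain and blood. The second probes of Stab1 and Dab2 were not kept, since 3 and 7 of their brain spots were called outliers. With those spots kept, the second Stab1 probe was 0.70 higher in Arg1+ macrophages (adjusted p = 0.0301) and the second Dab2 probe 0.18 higher (adjusted p = 0.673).

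**Figure D3:**
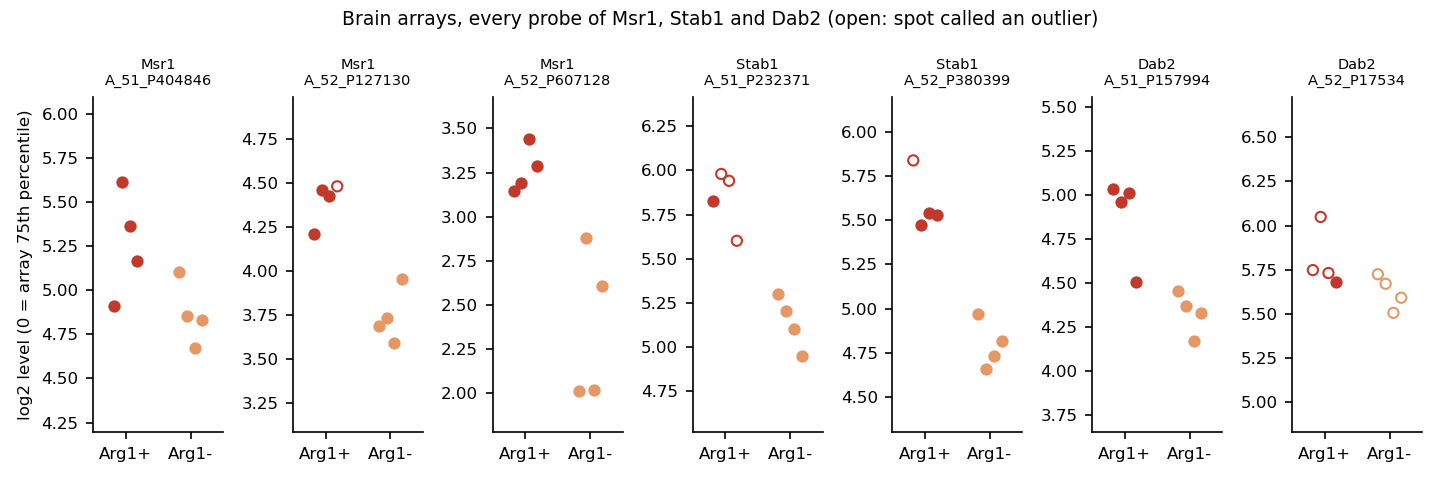
Levels of every probe of Msr1, Stab1 and Dab2 on the 8 brain arrays, as log2 of the signal over the array's 75th percentile. Each panel is 1 probe and each point 1 array, open where the scanner software called the spot an outlier. The Msr1 groups overlap for the brightest probe and not for the other probes, and the second Dab2 probe has outlier calls on 7 of 8 arrays.

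Lrp1 is described with its flagged spots kept, since only 5 of 14 spots were free of an outlier call. Its levels were then 6.14, 6.06, 6.22 and 5.76 on Arg1+ arrays and 5.56, 5.24, 5.13 and 5.38 on Arg1- arrays. In blood they were 4.51, 4.80 and 5.57 after TBI and 4.71, 4.37 and 4.37 in normal mice. The order of the group means was thus Arg1+ brain, Arg1- brain, post-TBI blood and normal blood, with 1 post-TBI blood array above all Arg1- arrays. Between the brain groups the difference was 0.71 ± 0.21 without overlap, which was not called (adjusted p = 0.0618, limma with flagged spots kept). In the authors' deposited log2 values it was 0.54 (adjusted p = 0.170).

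**Figure D4:**
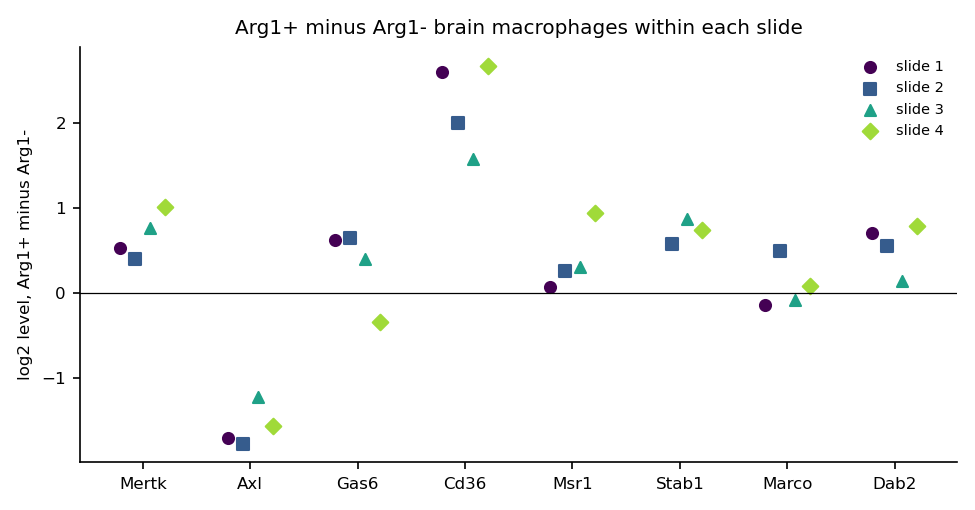
Difference in log2 level between the Arg1+ and the Arg1- array on each of the 4 slides for the 8 tested members, with 1 marker per slide. Cd36, Mertk, Msr1 and Dab2 are above 0 and Axl is below 0 on every slide, while Gas6 and Marco fall on both sides. Stab1 is above 0 on its 3 slides with a value. Stab1 has no value on slide 1, where its Arg1+ spot was left out.

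The second comparison asked whether injury changed these genes in circulating monocytes. None of the 8 tested members was called between post-TBI and normal blood by limma, and 0 had an unadjusted p under 0.05, where 1426 of all 21969 features did. Across all features 0.15% were called, 0.109% higher and 0.041% lower after TBI, so that calls were rare for any gene. The differences ran from -0.53 ± 0.27 for Axl to 0.55 ± 0.30 for Dab2, and their adjusted p-values from 0.808 upward. The blood groups overlapped for all 8 members, where 9.26% of all features did not overlap. For Cd36 the interval ran from -0.08 to 1.10 and for Axl from -1.10 to 0.05, and a difference of the size seen for Mertk in the brain lies inside both. With outlier-flagged spots kept, the second Dab2 probe was 0.94 higher after TBI without overlap (adjusted p = 0.0956), a difference that was not called.

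The last comparisons set the brain groups against post-TBI blood monocytes, and both use the same 3 blood arrays. Against them, Arg1+ macrophages had 6 members called higher and 0 lower, where 19.9% of features were called higher and 20% lower (39.9% in either direction). Arg1- macrophages had 6 called higher and 1 lower, where 17% were called higher and 16.4% lower (33.4% in either direction). Both counts include Mertk, which was above background on 1 of the 3 post-TBI blood arrays. The arrays did not overlap for 5 and 7 of the 8 members, where 39.7% and 37% of all features did not. The median differences of the 8 members were 2.56 and 2.19, against -0.03 and -0.02 over all features. Tissue of origin, the isolation steps (Percoll for brain, ficoll for blood) and cell type cannot be told apart in these comparisons.

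Dab2, Stab1 and Mertk were high in both brain groups and low in blood. Dab2 read -4.32, -3.86 and -2.73 in post-TBI blood and -3.92, -4.32 and -4.32 in normal blood, against 4.17 to 5.04 on the 8 brain arrays. Stab1 read -2.99, -2.87 and -2.36 in post-TBI blood and -2.59, -2.98 and -4.19 in normal blood, against 4.65 to 5.54 on 7 usable brain arrays. Mertk read -4.04, -4.32 and -4.16 in post-TBI blood and -4.32 on all 3 normal blood arrays, against 1.50 to 2.66 in brain. Every brain array lay above every blood array for each of these genes. Over post-TBI blood, Arg1+ macrophages were higher by 8.52 ± 0.28 for Dab2 and 8.26 ± 0.31 for Stab1 (log2 ± SE), with adjusted p-values of 1.34e-11 and 1.44e-10 by limma. For Arg1- macrophages the differences were 7.97 ± 0.28 and 7.53 ± 0.29. The size for Dab2 depends on the floor, where 3 of its 6 blood arrays lay. For Mertk 4 of 6 blood arrays lay at the floor and 1 was above background, so no exact fold is given. The fitted Mertk differences over post-TBI blood were 6.59 for Arg1+ and 5.91 for Arg1- cells, or 3.99 and 3.38 with normexp background correction, and their size is set by the floor and the background.

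Microglia markers moved with these genes. The summed signal of 10 such markers was 21.8 to 24.9 in post-TBI blood and 10.9 to 26.7 in normal blood, against 42.1 to 82.9 over the brain arrays. A spot left out as an outlier adds nothing to a sum. Cx3cr1, a bright marker, had 2 usable arrays in normal blood (mean level 3.96) and 3 in the Arg1- group, so some sums there lack it. Siglech and Slc2a5 were above background on no blood array. Of the 10, 8 were called higher and 1 lower in Arg1+ macrophages than in post-TBI blood. Markers of macrophages at the brain's borders were low in blood as well, at 0.209 to 0.337 for 3 tested genes, against 2.98 to 3.38 on Arg1+ and 1.36 to 1.69 on Arg1- arrays. Of these 3 genes 1 was called between the brain groups, Folr2, a folate receptor of such cells, at 1.70 higher in Arg1+ macrophages. Cbr2 (0.59) and Lyve1 (0.09) were not called. The endothelial markers Cdh5, Kdr and Tek were above background on no blood array. By limma 0 of the 6 endothelial markers tested were called between the brain groups, with 2 at an unadjusted p under 0.05, where 3854 of all 21969 features were. Of 6 markers of Ly6C-low monocytes 5 were called lower in either brain group than in post-TBI blood (median differences -4.99 for Arg1+ and -3.34 for Arg1-), and of 5 markers of Ly6C-high monocytes 4 and 3 were (median -2.02 for Arg1+). The part of these cell types in the brain values of Mertk, Stab1 and Dab2 was not tested.

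Msr1 and Gas6 were higher in brain by smaller amounts. Msr1 read 2.47, 1.75 and 1.59 in post-TBI blood and 1.84, 1.43 and 1.68 in normal blood, below every brain array. It was higher by 3.33 ± 0.22 in Arg1+ and 2.93 ± 0.22 in Arg1- macrophages than in post-TBI blood (adjusted p = 1.72e-08 and 1.31e-07, limma). Gas6, the TAM ligand, read -0.12, -0.89, -0.02 and -0.18 on Arg1+ arrays and -0.67, -0.58, -0.55 and -0.74 on Arg1- arrays. It read -1.45, -2.14 and -2.70 in post-TBI blood and -1.88, -1.67 and -2.47 in normal blood. Brain and blood thus did not overlap for Gas6, while the groups within each tissue did. It was higher by 1.79 ± 0.30 and 1.46 ± 0.30 than in post-TBI blood (adjusted p = 0.000208 and 0.00155), or by 1.07 and 0.84 with normexp background correction.

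Cd36 and Axl differed from blood in a different way in each brain group, and the test of that difference is the Arg1+ against Arg1- comparison given before. Cd36 was 0.78 ± 0.26 higher in Arg1+ macrophages than in post-TBI blood (adjusted p = 0.0247, limma), although 1 blood array reached into the Arg1+ range. It was 2.69-fold lower in Arg1- macrophages, a log2 difference of -1.43 ± 0.26 (adjusted p = 0.000592). The Arg1+ call was lost in a fit on both groups alone (adjusted p = 0.0552) and without post-TBI blood replicate 1 (0.50, adjusted p = 0.139), post-TBI replicate 3 (0.0578) or Arg1+ replicates 1 (0.0581) and 2 (0.0569). Axl was 2.23-fold higher in Arg1- macrophages than in post-TBI blood (1.15 ± 0.25, adjusted p = 0.00254). In Arg1+ macrophages it differed from post-TBI blood by -0.41 ± 0.25 (adjusted p = 0.221), with overlap. No Arg1- array overlapped post-TBI blood for either gene. Normal blood was not tested against brain. For Cd36 its 3 arrays lay above all Arg1- arrays, and for Axl its highest array lay within the Arg1- range.

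Marco was near background in every group. Its levels were -3.16 to -2.43 on Arg1+ arrays, -3.55 to -2.35 on Arg1- arrays, -3.65 to -2.51 in post-TBI blood and -3.22 to -2.82 in normal blood. All 4 groups overlapped, and 3 of the 14 spots were not well above background. Its differences from post-TBI blood were 0.20 ± 0.32 for Arg1+ (adjusted p = 0.676) and 0.11 ± 0.32 for Arg1- macrophages (adjusted p = 0.844). For Lrp1 with flagged spots kept, Arg1+ macrophages were 1.08 ± 0.23 higher than post-TBI blood (adjusted p = 0.00134, limma), and Arg1- macrophages 0.37 ± 0.23 higher (adjusted p = 0.233).

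Other genes of the same pathways were taken from 7 lists by role. Among 11 tested other scavenger receptors, 1 was called higher and 0 lower in Arg1+ than in Arg1- macrophages, where 2.14% and 2.9% of all features were. That gene was Cd163, the haemoglobin scavenger receptor, at 1.39 ± 0.22 (adjusted p = 0.00148). Cd163 was dim, above background on 2 of 4 Arg1- arrays with a mean level of -3.98 there, near the floor. Among 13 other receptors for dying cells, 1 was higher and 0 lower, namely Cd300lf, a lipid-binding receptor, at 0.97 ± 0.27 (adjusted p = 0.0485). The third TAM receptor, Tyro3, was not called in this comparison, at -0.98 ± 0.27 (adjusted p = 0.0543). Of 9 tested genes of the Lrp1 family, 1 was called higher and 1 lower, so that the family did not move one way. The higher one was Lrp12, at 1.03 ± 0.17 (adjusted p = 0.00287). Median differences of these lists were -0.10, 0.17 and 0.30, where that of all features was 0.

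Downstream of the receptors, 2 of 22 tested genes of the engulfment and endocytosis machinery were called higher and 0 lower in Arg1+ macrophages. They were Abca1, a cholesterol exporter that acts after engulfment, at 1.11 ± 0.20 (adjusted p = 0.00574, 3 of 4 Arg1+ spots usable), and Lrpap1, the chaperone of Lrp1, at 0.52 ± 0.12 (adjusted p = 0.0229). By limma, 0 of 11 bridging and tagging molecules, 0 of 10 transcription factors known to act on such receptors and 0 of 3 sheddases were called. Their counts at an unadjusted p under 0.05 were 2, 1 and 1, where 3854 of all 21969 features had such a p. In blood 0 genes of any of the 7 lists were called by limma, and the counts at an unadjusted p under 0.05 ran from 0 to 4 a list. The highest were 4 of 11 bridging and tagging molecules and 4 of 10 transcription factors, where 1426 of all 21969 features had such a p.

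**Figure D5:**
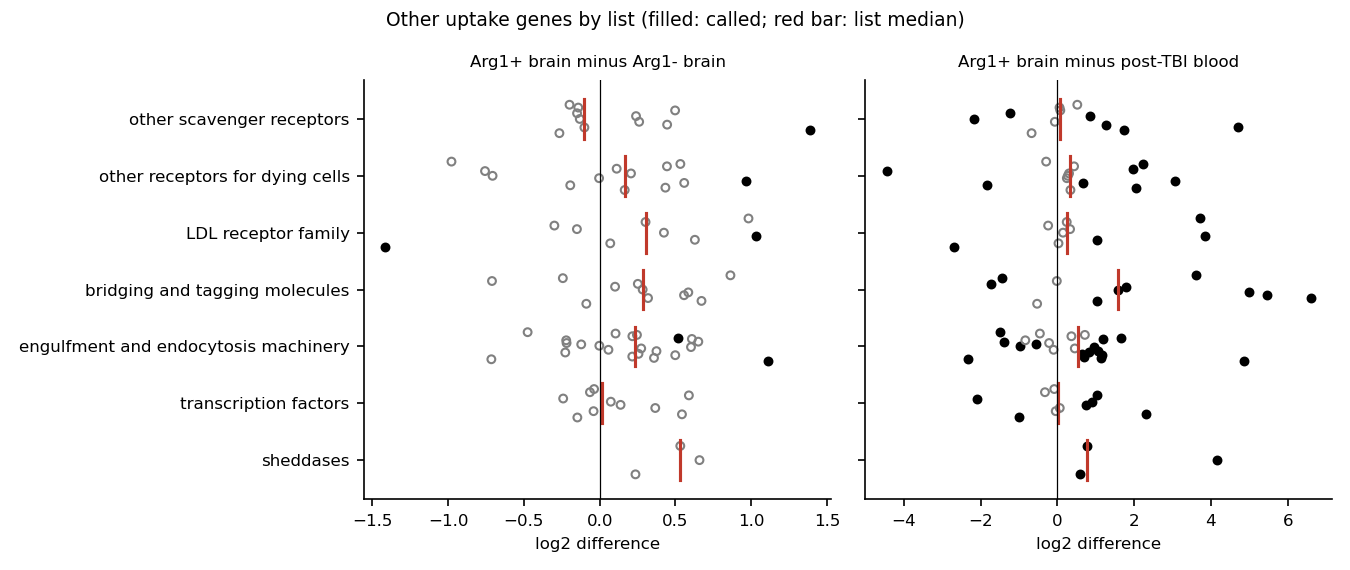
Log2 differences of the tested genes of the 7 pathway lists, for Arg1+ against Arg1- macrophages (left) and Arg1+ macrophages against post-TBI blood (right). Each circle is 1 gene, filled where called, and the red bar is the list's median. Few genes are called between the brain groups, and many are called in both directions against blood.

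Against post-TBI blood 6 of the 7 lists had genes called in both directions, where 19.9% of all features were called higher and 20% lower in Arg1+ macrophages. In Arg1+ macrophages 4 other scavenger receptors were higher and 2 lower, among them Cxcl16, a scavenger receptor and chemokine, at 4.70 ± 0.24, and Scarb1, the HDL receptor, at -2.17 ± 0.16. Cd163 was above background on no post-TBI blood array and was at least 3.30-fold higher in Arg1+ macrophages. The bound compares the mean of the bright group with, on each blood array, the higher of the probe's own signal and the dimmest signal well above background. Of the other receptors for dying cells 5 were higher and 2 lower, with Cd300lf at 3.07 ± 0.29, Trem2, a lipid receptor of microglia, at 2.22 ± 0.26, Cd300a at -1.82 ± 0.22 and the integrin Itgb3 at -4.45 ± 0.47. Itgb3 is also a platelet gene. Of 6 platelet markers 4 were called lower in Arg1+ macrophages than in post-TBI blood, while Ppbp (0.65) and Gp1bb (-0.13) were not called. The part of platelet RNA in the Itgb3 difference was not tested. In the Lrp1 family 3 were higher and 1 lower, with Lrp12 at least 14.3-fold higher and Lrp8, a reelin receptor, at 3.73 ± 0.31.

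Bridging and tagging molecules had 7 of 11 genes higher and 2 lower in Arg1+ macrophages than in post-TBI blood. The complement genes C1qa and C1qb, which tag dying cells, were higher by 6.60 ± 0.41 and 5.46 ± 0.24, while Pros1, the other TAM ligand, was lower at -1.45 ± 0.34 (adjusted p = 0.00314). The 2 TAM ligands thus differed in opposite directions, since Gas6 was higher in brain. Engulfment and endocytosis genes were higher for 10 and lower for 5 of 22, with Abca1 at 4.87 ± 0.22, Lrpap1 at 1.66 ± 0.13, Rac2 at -1.49 ± 0.22 and Abca7 at -2.32 ± 0.23. Of the transcription factors 4 were higher and 2 lower. Rxra, a nuclear receptor partner, was at 1.04 ± 0.19, and Pparg, a nuclear receptor that acts on Cd36, was at -2.09 ± 0.24. All 3 tested sheddases were higher, with Adam8 at 4.15 ± 0.55 and Adam9 at 0.78 ± 0.20.

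In Arg1- macrophages the counts against post-TBI blood were 3 higher and 2 lower for other scavenger receptors, 5 and 2 for other receptors for dying cells and 2 and 1 for the Lrp1 family. They were 6 and 2 for bridging molecules, 7 and 4 for the engulfment machinery, 3 and 2 for transcription factors and 1 and 0 for sheddases, where 17% of all features were called higher and 16.4% lower. Cxcl16 was 4.80 ± 0.24 higher, C1qa 6.28 ± 0.41 higher and Abca1 3.76 ± 0.20 higher. Pros1 was lower at -1.21 ± 0.34 with overlap, and Elmo2, part of the engulfment signalling complex, was lower at -2.05 ± 0.33. These values sit beside those of the Arg1+ group and share its blood arrays.

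The members also differed in which genes of the array followed them most closely over the 14 arrays. By Pearson r, given as a description, Ccl12 and Ccl7, both monocyte chemoattractants, were most like Mertk (r = 0.998 each). Dst and Cstb were most like Msr1 (0.996 and 0.995), Spsb1 and Dab2 most like Stab1 (0.998 and 0.996, 13 arrays), and Rai14 and Spsb1 most like Dab2 (0.997 each). These values describe the gap between brain and blood. For Cd36 the most alike were Serpinb6a and Rcbtb2 (0.924 and 0.916), and for Axl Traf1 and Tcof1 (0.918 and 0.893). Gas6 was most like Snx12 (0.977, 11 arrays) and Fmnl2 (0.973, 12 arrays), and Marco most like Actl6a (0.918) and Dync1h1 (0.856, 11 arrays). Each named gene was picked as the highest of 12965 named features. Its r is therefore high partly through the picking, also for Marco, which was near background. Among the 28 pairs of tested members r ran from -0.889 for Cd36 with Axl to 0.996 for Stab1 with Dab2. The points of each correlation share their arrays and their groups.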

How the data were processed

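RNA of sorted mouse cells was amplified, labelled with Cy3 and hybridised to 14 one-colour arrays, per the labels' protocols. The scanner files deposited by the authors hold processed signal intensity, background-subtracted and detrended, with median spot and background intensity and other values such as 0 or 1 flags, written by Feature Extraction 10.7.3.1 per the file headers. The authors also deposited log2 values, which have the ranks of the median spot signal and near-equal distributions. Limma is named in the submitters' processing notes without a version.

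The processed signal was divided by each array's 75th percentile, raised to 0.05 where lower, and log2 transformed. Spots called outliers were left out, and spots of a probe averaged. Probes needed 2 usable arrays in every group and a signal well above background on 3 arrays: 464 and 13101 probes failed, and 27609 were kept. Of 4417 symbols with several kept probes the brightest was used, leaving 21969 features (12965 named). Of 41174 probes, 24844 were named through RefSeq accessions (GRCm38.p6, names only). One limma fit (version 3.58.1, R 4.3.3, intensity trend, all 14 arrays in 4 groups, 10 residual degrees of freedom) gave the p-values of the main setting. They were adjusted by Benjamini-Hochberg over all features and called under 0.05. A p-value given with another setting comes from a fit under that setting. The number of arrays limits the precision, and depth has no meaning here. Each slide was scanned once, so slide and scan are 1 batch, and it was tried as a block.

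The genes, lists and tests were chosen with earlier results of these data known. Named genes are the 9 members, the 2 highest and 2 lowest called per list and comparison, and the 2 symbols most like each member; some results under this rule are not reported here. Tyro3 and the single cell type markers named were picked after their values were seen. The scripts were tested on simulated data. Alternatives were normexp background correction (offset 50, on median signals), quantile normalization, the authors' table, other filters, a floor of 0.01, other probe rules, blocks, no intensity trend, 2-group fits and leaving out each array. Keeping flagged spots and fitting every probe were added after seeing the data.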

Additional observations from a re-analysis of the deposited data

Results flagged for a closer look

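Dab2 on the fourth Arg1+ brain array read 4.51, whereas the other 3 arrays of that group read 4.96 to 5.04. The gap made up 0.857 of the group's range, above Dixon's critical value for 4 samples. It was the 1 case in 15 groups of 4 searched, and chance alone gives about 1 in 20.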

How the results depend on the processing

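The member calls held unevenly. Cd36 (1.75 to 2.32) and Axl (-1.68 to -0.75) were called between the brain groups under all 26 alternatives, and the calls of Mertk, Gas6, Msr1, Stab1 and Dab2 against post-TBI blood, with those of Cd36 and Axl for Arg1- macrophages, were also kept. Mertk passed the filter through the brain arrays alone, so its kept calls against blood add no support. The Mertk call between the brain groups was lost under 5 alternatives and 10 of 14 single-array omissions (adjusted p 0.0536 to 0.376 where lost), while its difference stayed between 0.56 and 0.81. The Cd36 call of Arg1+ macrophages over post-TBI blood was lost without the dim-probe filter (adjusted p = 0.0559), in the fit on both groups alone, and on leaving out 4 single arrays (lowest 0.50, highest 1.05). With flagged spots kept, Stab1 was called through its other probe, which was then the brighter (0.70, adjusted p = 0.0314), while the probe of the main setting was not called (0.80, adjusted p = 0.0988). The latter was called in the fit on both groups alone (adjusted p = 0.0150) and without normal blood replicate 4 (adjusted p = 0.0323). Members called ranged over single-array omissions from 2 to 4, 0 to 0, 5 to 6 and 7 to 7 in the 4 comparisons.

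Over all features, 504 were called between the brain groups with normexp, and 602 to 1790 on leaving out 1 array (602 without Arg1- replicate 3, 698 without Arg1+ replicate 3, 1790 without post-TBI replicate 4). Between the blood groups 16 were called with normexp, 20 with the authors' table and 2 to 60 on leaving out 1 array (2 without post-TBI replicate 3, 60 without post-TBI replicate 1), a count that moved by over 1.5 times in 11 of 14 omissions. The fit on both blood groups alone called 0 by limma, with 893 at an unadjusted p under 0.05. Normexp moved the median of all features by 0.12 (Arg1+ against Arg1-) and 0.14 (Arg1+ against post-TBI blood).

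Signs turned only for members that were not called. With normexp, Axl in Arg1+ macrophages against post-TBI blood was 0.0095, and with the authors' table Marco was -0.0066 between the blood groups. On leaving out 1 array, Marco ran from -0.12 to 0.28 between the brain groups, -0.24 to 0.33 between the blood groups, -0.11 to 0.46 for Arg1+ and -0.20 to 0.37 for Arg1- macrophages against post-TBI blood, and Gas6 from -0.41 to 0.21 between the blood groups. The cause of these shifts was not tested.

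Samples with the same replicate number had r of deviations from the group means of -0.46 to 0.41 over 18 pairs (median -0.15). This cannot show whether the numbers pair arrays, since most of these pairs lay on different slides. Pairs on different slides had a median r of -0.11, against 0.23 for pairs on 1 slide. With the replicate block, 833 features were called between the brain groups and 2 between the blood groups, and Mertk (adjusted p = 0.0993) and Cd36 over post-TBI blood in Arg1+ cells (0.72, adjusted p = 0.0602) were not called. Arrays on 1 slide had r from 0.04 to 0.59 over 19 pairs.

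Limits are the 3 or 4 arrays a group, signal over background for Axl, Marco and the blood values of Mertk, Stab1 and Dab2, and outlier flags on bright spots, which removed Lrp1.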
